A study of Homo sapiens with 15 samples.

Results

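The fibroblast growth factor (FGF) receptors are the targets of erdafitinib, a kinase inhibitor, and their RNA was followed here in a breast cancer line and in its tamoxifen-resistant derivative. The genes were taken by symbol from the Ensembl gene IDs of the count files: FGFR1, FGFR2, FGFR3 and FGFR4, which encode the receptor tyrosine kinases, FGFRL1, which encodes a receptor-like protein with no kinase domain, FRS2, which encodes the adaptor that docks on the receptors, and FGF13, which encodes an FGF-like protein that stays inside the cell. All 7 were found among the 60664 gene IDs.

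RNA was sequenced in 15 libraries of T47D, a widely used oestrogen receptor-positive breast cancer line of luminal type. Resistant cells (TR) received 1 µM 4-hydroxytamoxifen (4-OHT, the active metabolite of tamoxifen) with 5 µM erdafitinib (TR combination), 5 µM erdafitinib (TR erdafitinib), 1 µM 4-OHT (TR 4-OHT) or 0.05% DMSO (TR vehicle), and parental cells (PAR vehicle), labelled sensitive to 4-OHT, received 0.05% DMSO. Each group had 3 libraries, and all 15 libraries are listed with 0.05% DMSO, those with drugs included. Every culture attached for 24 h, was kept for 48 h in medium with 2% charcoal-stripped serum and 8 µg/mL insulin, and was then treated for 120 h. Before that, TR cells were grown in 2% charcoal-stripped serum with 1 µM 4-OHT and PAR cells in 5% serum without it, so that TR vehicle cells had been withdrawn from 4-OHT, and resistance and growth history cannot be told apart. How the resistant line was derived, and whether it is 1 clone, is not given in the sources used here. Libraries of a group are labelled as biological replicates with no word on separate cultures, so that a p-value reflects only how far these particular samples spread, and part of that spread may be technical.

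FGF ligands bind their receptors at the cell surface together with heparan sulphate or a Klotho co-receptor, the receptors pair and phosphorylate each other, and FRS2 then recruits GRB2, SOS and the phosphatase PTPN11 to start the RAS and ERK pathway. ERK signalling induces genes that dampen it again, such as those of the Sprouty and DUSP families. In breast epithelium, FGFR2 is a receptor of the ductal cells that answers stromal ligands, and amplification of FGFR1 is a known feature of part of the luminal tumours. Alternative exons give FGFR1, FGFR2 and FGFR3 forms with different ligand ranges, which counts per gene do not separate.

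The labelled cell type was checked first. All 8 luminal epithelial markers (such as KRT8, KRT18, EPCAM and GATA3) averaged over 1 CPM in every group. CPM here are counts scaled to the effective (TMM) library size. Of the 8, CDH1 (log2 fold change 0.83) and GATA3 (0.45) were higher in TR vehicle than in PAR vehicle, while ESR1, the oestrogen receptor gene (-1.44, adjusted p = 7.39e-06), and FOXA1 (-1.25, adjusted p = 1.19e-05) were lower. Of 13 markers of blood, endothelial, fibroblast and liver cells, CD3E and COL1A2 had 0 counts in all libraries, and the collagen gene COL1A1 held most of the summed level. That summed level was 13.6 to 39.1 CPM in TR vehicle libraries and 11.9 to 29.1 CPM in PAR vehicle libraries. The fibroblast marker COL3A1 stood apart, with 148 counts in TR vehicle and 0 in PAR vehicle, at least 29.9-fold higher in TR vehicle when PAR is set to 3 counts, and its part in the results was not tested. Totals ranged from 6946684 counts (PAR vehicle 2) to 28717380 (TR erdafitinib 2), with a median of 22304029, and the next lowest was TR 4-OHT 2 with 8990899. Depending on the library, 3 counts equalled 0.0983 to 0.476 CPM.

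Promoter sequences are shown for the genes whose RNA differed between groups, as the context in which their transcription starts. RefSeq windows (build GRCh38.p14, 250 bases before to 50 after an annotated start) matched 6 of the 7 genes, all but FGFR1, with 12 windows. The most upstream window of FGFR2 (chr10:121598395-121598694, minus strand), that of FGFR4 (chr5:177086665-177086964, plus strand) and that of FGF13 which holds the most CpG (chrX:139204974-139205273, minus strand) are printed from 5′ to 3′ along the gene's strand. Capitals mark GC boxes (GGGCGG on either strand, with overlapping matches run together), the motif read by SP1-family factors.
FGFR2: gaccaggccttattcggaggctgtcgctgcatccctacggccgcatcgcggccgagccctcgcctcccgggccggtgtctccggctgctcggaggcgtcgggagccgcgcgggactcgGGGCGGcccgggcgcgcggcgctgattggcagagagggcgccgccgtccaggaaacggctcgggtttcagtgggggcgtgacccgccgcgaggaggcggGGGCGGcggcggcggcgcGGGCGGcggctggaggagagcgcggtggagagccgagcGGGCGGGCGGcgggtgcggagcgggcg
FGFR4: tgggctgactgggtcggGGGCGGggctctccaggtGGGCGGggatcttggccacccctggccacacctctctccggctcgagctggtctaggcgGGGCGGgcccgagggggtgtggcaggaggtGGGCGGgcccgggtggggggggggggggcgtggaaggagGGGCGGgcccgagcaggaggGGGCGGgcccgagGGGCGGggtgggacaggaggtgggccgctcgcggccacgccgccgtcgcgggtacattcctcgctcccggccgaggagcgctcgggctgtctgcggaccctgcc
FGF13: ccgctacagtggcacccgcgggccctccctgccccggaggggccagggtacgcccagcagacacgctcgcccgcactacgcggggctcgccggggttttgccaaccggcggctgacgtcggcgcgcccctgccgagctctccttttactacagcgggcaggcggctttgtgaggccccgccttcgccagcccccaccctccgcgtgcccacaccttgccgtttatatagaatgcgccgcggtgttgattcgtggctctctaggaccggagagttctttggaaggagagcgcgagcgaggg
The FGFR2 window had 79.3% G and C, 52 CpG and 5 GC boxes. The FGFR4 window had 78.7% G and C, 30 CpG and 7 GC boxes, while the FGF13 window had 69% and 34 CpG with no GC box. The median over all 35116 RefSeq windows was 58.7% G and C and 14 CpG. The windows of these genes that are not printed were poorer. Those of FGFR2 had 47.3 to 50.7% G and C and 5 to 8 CpG. That of FGFR4 had 57.3% and 2 CpG, and that of FGF13 had 37.7% and 0 CpG. Which start these cells use was not tested. A GC box occurred in 6 of the 12 windows of these genes and in 45% of all windows. Other motifs were searched on both strands too. A loose form of the AP-1 site (TGANTCA, with any base in the middle) occurred in 1 of the 12 windows and in 7.71% of all. In that window, of FGF13, the match reads TGAATCA. The E-box CAGGTG, which EMT repressors of the SNAI and ZEB families read, occurred in 2 of 12, one of them the printed FGFR4 window, and in 20.6% of all. The full palindromic oestrogen response element occurred in 0 of 12 and in 0.057% of all. Such matches describe these letters only.

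Resistant and parental cells were compared to see which receptors the resistant cells carry. FGFR1 was 8.92 times as high in TR vehicle cells as in PAR vehicle cells, FGFR4 was 7.53 times as high at a far lower level and with far more spread, FGFR2 was 1.37 times as high, and FGF13 was far lower. In bulk RNA, fewer cells of a kind and less RNA per cell cannot be told apart. FGFR3, FGFRL1 and FRS2 did not pass the test. The quasi-likelihood test of edgeR with Benjamini-Hochberg adjustment over 16210 genes called 35.9% of all tested genes in this comparison (19.9% higher, 16% lower), so that a call for a single gene was common here. All 7 genes passed the filter on low counts, but FGFR4 passed only through TR libraries and FGF13 only through PAR libraries, so that each had to differ to be tested.

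**Figure D1:**
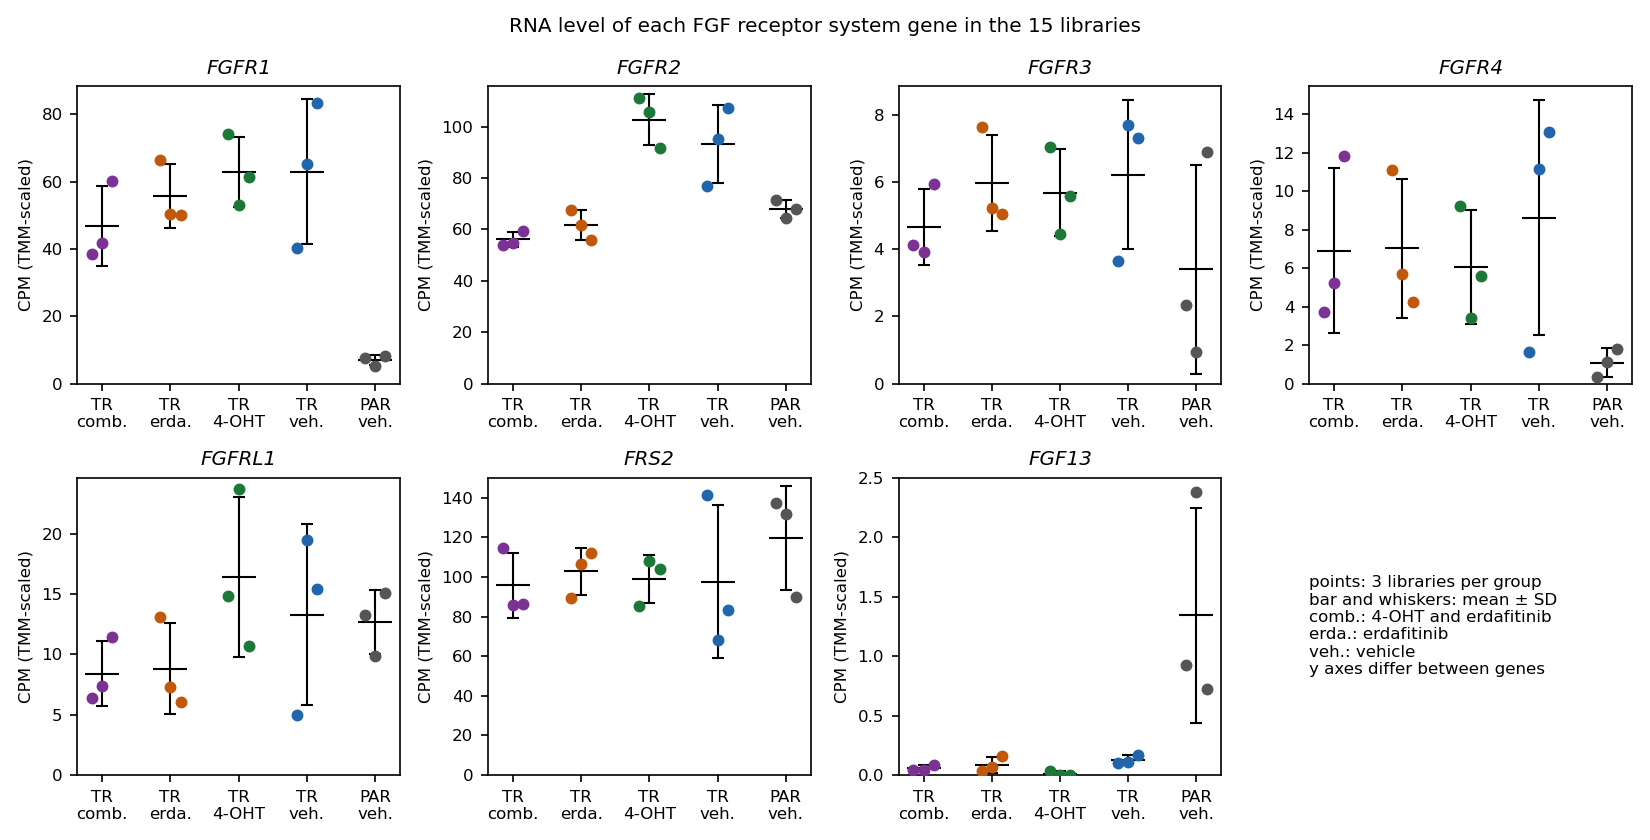
RNA level (CPM scaled by TMM, y axis, different for each gene) of the 7 genes in the 5 groups (x axis). Points are the 3 libraries of a group, and the bar with whiskers is their mean ± SD. FGFR1 lies between 38.3 and 83.2 CPM in all 12 TR libraries and between 5.24 and 8.03 CPM in PAR libraries, and FGFR2 is below 68 CPM in all 6 erdafitinib libraries and above 77 CPM in the other 6 TR libraries.

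FGFR1 (ENSG00000077782, GRCh38 chromosome 8, 38400215 to 38468834, minus strand) encodes a receptor of many FGF ligands with roles in mesenchymal cells. It had 38.3, 41.6 and 60.2 CPM in TR combination libraries and 66.5, 50.3 and 49.9 CPM in TR erdafitinib libraries. It had 74.0, 53.2 and 61.3 CPM in TR 4-OHT libraries and 40.4, 65.2 and 83.2 CPM in TR vehicle libraries, against 7.55, 5.24 and 8.03 CPM in PAR vehicle libraries. The lowest of the 12 TR libraries lay well above the highest PAR library, and the TR groups overlapped with each other. Means were 62.9 ± 21.5 CPM in TR vehicle and 6.94 ± 1.49 CPM in PAR vehicle (SD, n = 3 each), and the fitted log2 difference was 3.16 (SE 0.29, adjusted p = 1.37e-06). Against the same PAR libraries the log2 fold change was 3.16 in TR 4-OHT, 2.98 in TR erdafitinib and 2.73 in TR combination, all called, where 35.3%, 35.2% and 34.6% of all tested genes were. These 4 comparisons share the PAR libraries and are not independent. The call held in all 25 alternative settings for TR vehicle, with values of 2.92 to 3.40. The FGFR1 exons share 525 bases with genes on the opposite strand, and reads were counted by strand.

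FGFR2 (ENSG00000066468, chromosome 10, 121478332 to 121598458, minus strand) was the receptor gene that differed with erdafitinib past the threshold, and among the 7 genes the only one in the pooled test. Its level was 54.0, 54.8 and 59.6 CPM in TR combination libraries and 67.7, 61.7 and 56.0 CPM in TR erdafitinib libraries. It stood at 111, 106 and 91.5 CPM in TR 4-OHT libraries, 77.1, 95.3 and 107 CPM in TR vehicle libraries, and 71.4, 64.5 and 68.1 CPM in PAR vehicle libraries. The TR libraries without erdafitinib were the highest, and the erdafitinib libraries lay around or below PAR. Ordered by mean, TR 4-OHT (102.8 ± 10.1 CPM) was followed by TR vehicle (93.2 ± 15.2), PAR vehicle (68.0 ± 3.49), TR erdafitinib (61.8 ± 5.88) and TR combination (56.1 ± 3.00, SD, n = 3 each). Of the neighbours in this order, TR vehicle and PAR vehicle were the pair that passed the test, while TR 4-OHT and TR vehicle, TR erdafitinib and PAR vehicle, and TR combination and TR erdafitinib did not.

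Against PAR vehicle, FGFR2 was higher by 0.45 on the log2 scale in TR vehicle (SE 0.14, adjusted p = 0.0231) and by 0.60 in TR 4-OHT (adjusted p = 0.00496). The first of these calls was lost in 7 of 25 settings, among them without PAR vehicle 2 (0.42), TR vehicle 2 (0.46) or TR vehicle 3 (0.36), although the direction held in each. In TR erdafitinib the difference from PAR was -0.14 (95% interval -0.45 to 0.17, adjusted p = 0.495) and in TR combination it was -0.28 (-0.58 to 0.03, adjusted p = 0.156). The TR combination libraries all lay below the PAR libraries, and 2 of 25 settings called that difference (edgeR adjusted p down to 0.0297).

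FGFR4 (ENSG00000160867, chromosome 5, 177086905 to 177098144), a receptor best known in liver for FGF19, had 3.70, 5.22 and 11.8 CPM in TR combination and 11.1, 5.72 and 4.24 CPM in TR erdafitinib libraries. It had 9.25, 3.39 and 5.57 CPM in TR 4-OHT and 1.65, 11.1 and 13.1 CPM in TR vehicle libraries, against 0.335, 1.11 and 1.82 CPM in PAR vehicle libraries (4, 7 and 50 counts). TR vehicle 1 fell inside the PAR range, and all other TR libraries lay above it. The log2 fold change over PAR was 2.91 in TR vehicle (SE 0.78, 95% interval 1.25 to 4.57, adjusted p = 0.00915), 2.42 in TR 4-OHT, 2.62 in TR erdafitinib and 2.59 in TR combination (adjusted p = 0.0244, 0.0164 and 0.0178). In a gene that had to differ to pass the filter, the TR vehicle call held in 25 of 25 settings (2.47 to 3.76). Each of the other 3 was lost without PAR vehicle 1 (2.00, 2.20 and 2.17). The TR 4-OHT call was also lost without PAR vehicle 2 (2.40) or TR 4-OHT 1 (1.98), the TR erdafitinib call without TR erdafitinib 1 (2.12), and the TR combination call without TR combination 3 (1.94).

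FGFR3 (ENSG00000068078, chromosome 4, 1793293 to 1808872), a receptor with a known role in growing bone, had 4.14, 3.90 and 5.95 CPM in TR combination and 7.64, 5.24 and 5.04 CPM in TR erdafitinib libraries. It had 7.05, 4.44 and 5.57 CPM in TR 4-OHT, 3.66, 7.70 and 7.31 CPM in TR vehicle, and 2.35, 0.952 and 6.91 CPM in PAR vehicle libraries. PAR vehicle 3 lay among the TR libraries and the other 2 PAR libraries below all of them. The log2 fold change of TR vehicle over PAR was 0.80 (SE 0.50, 95% interval -0.29 to 1.88, adjusted p = 0.244). Without PAR vehicle 3 it was 1.88 (adjusted p = 0.00675).

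FGFRL1 (ENSG00000127418, chromosome 4, 1009936 to 1026898) had 6.34, 7.40 and 11.5 CPM in TR combination and 13.1, 7.32 and 6.06 CPM in TR erdafitinib libraries. Its level was 14.8, 23.7 and 10.7 CPM in TR 4-OHT, 5.00, 19.5 and 15.4 CPM in TR vehicle and 13.2, 9.84 and 15.1 CPM in PAR vehicle libraries. TR vehicle libraries spanned the whole PAR range, with a log2 fold change of 0.06 (95% interval -0.91 to 1.03, adjusted p = 0.937). FRS2 (ENSG00000166225, chromosome 12, 69470349 to 69579793) had the highest CPM of the 7 genes in PAR, with 142, 68.2 and 83.1 CPM in TR vehicle against 138, 132 and 89.8 CPM in PAR vehicle libraries. It ranged from 85.3 to 115 CPM in the other 9 TR libraries. The groups overlapped, with a log2 fold change of -0.29 (95% interval -0.82 to 0.23, adjusted p = 0.383). Without TR vehicle 1 it was -0.65 (adjusted p = 0.0246), a call. In all, 3 of 25 settings called FRS2 lower, with an edgeR adjusted p down to 0.0151. The fit with a covariate, given below, was among them.

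FGF13 (ENSG00000129682, chromosome X, 138614727 to 139222777, minus strand), one of the FGF homologous factors known for binding sodium channels and microtubules, was close to the detection limit. It had 1, 1 and 2 counts in TR combination, 1, 2 and 3 in TR erdafitinib, 1, 0 and 0 in TR 4-OHT and 2, 3 and 5 in TR vehicle libraries. PAR vehicle libraries had 11, 15 and 20 counts, although they include the shallowest library. By summed counts scaled to depth, the level in TR vehicle was 0.132 times that in PAR vehicle (exact 95% interval 0.0593 to 0.265, counting error only). The fitted log2 fold change of TR vehicle over PAR was -3.20 (SE 0.65, adjusted p = 0.00162). The call held in the 23 settings that gave FGF13 a value, but the gene had to differ to pass the filter. It fell below the filter at CPM of at least 1 and after thinning to the lowest total. The same ratio to PAR vehicle was 0.0562 in TR combination (0.0147 to 0.154), 0.0760 in TR erdafitinib (0.0265 to 0.178) and 0.0168 in TR 4-OHT (0.000416 to 0.0984, from 1 count).

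**Figure D2:**
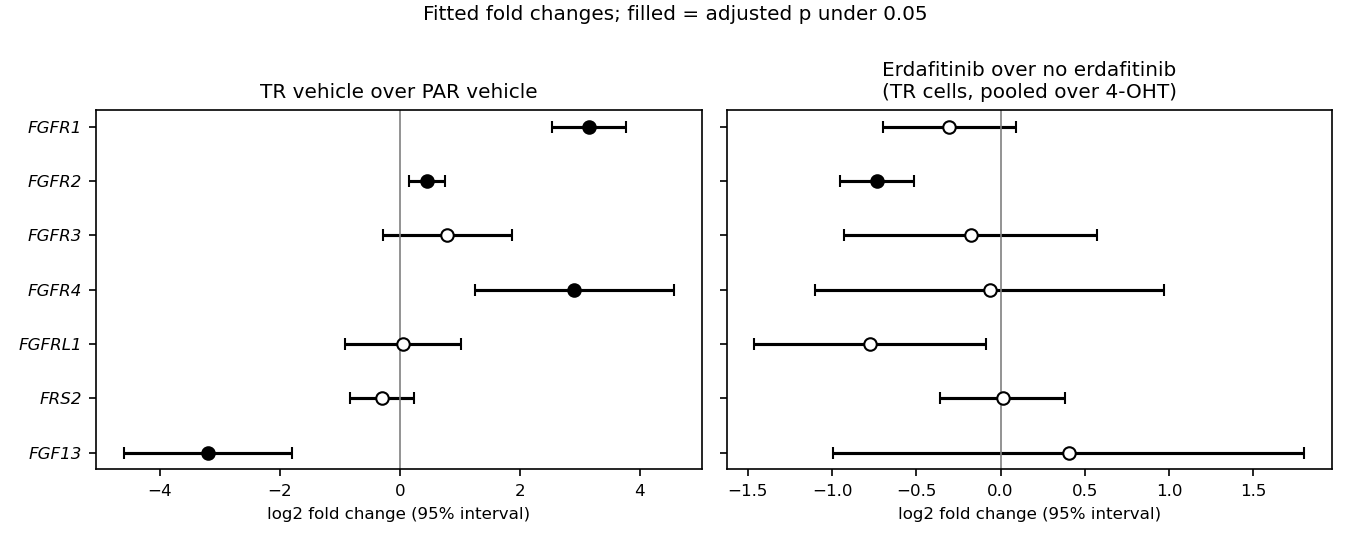
Fitted log2 fold change (x axis, with its 95% interval) of the 7 genes for TR vehicle over PAR vehicle (left) and for erdafitinib over no erdafitinib in TR cells (right), on different x scales. Filled points had an adjusted p under 0.05: FGFR1, FGFR2, FGFR4 and FGF13 on the left, and FGFR2 with -0.73 on the right.

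Within the resistant cells the question was whether the drugs move the receptor genes themselves. FGFR2 was lower in all 6 libraries with erdafitinib, with 54.0 to 67.7 CPM (median 57.8), than in any of the 6 TR libraries without it, with 77.1 to 111 CPM (median 101). The erdafitinib effect pooled over both 4-OHT settings was -0.73 on the log2 scale, a fold of 0.602 (SE 0.10, 95% interval -0.95 to -0.52, adjusted p = 0.00171). The same test called 1.71% of all tested genes, with 0.938% of all tested genes called lower and 0.777% called higher. The FGFR2 call held in 25 of 25 settings, with values of -0.79 to -0.68 and adjusted p up to 0.00928.

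With 4-OHT present, the FGFR2 log2 fold change with erdafitinib was -0.87 (SE 0.14, adjusted p = 0.0104), where 0.642% of all genes were called. That call was lost without TR 4-OHT 1 (-0.81), TR combination 1 (-0.84) or TR combination 2 (-0.85). Without 4-OHT the change was -0.59 (SE 0.14, adjusted p = 0.270), which missed the threshold in a comparison that called 0.0925% of all genes. DESeq2 called it (adjusted p = 0.0281), and it was also called with GC offsets (0.0287) and with the within-group axis as a covariate (0.0108). That axis was drawn from the spread of these same libraries, so that the last call is not independent support. The interaction, the change with 4-OHT minus the change without it, was -0.28 (SE 0.20, 95% interval -0.71 to 0.15), and did not pass the test (edgeR adjusted p = 1.00).

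For the other receptors the pooled erdafitinib effect did not pass the test. It was -0.30 for FGFR1 (95% interval -0.70 to 0.09, adjusted p = 0.604), -0.18 for FGFR3 (-0.93 to 0.57) and -0.06 for FGFR4 (-1.10 to 0.97). For FRS2 the pooled effect was 0.01 (-0.36 to 0.39). FGFRL1 was at 6.06 to 13.1 CPM (median 7.36) in erdafitinib libraries and 5.00 to 23.7 CPM (median 15.1) in the other TR libraries, which overlapped. Its pooled effect was -0.77, close to that of FGFR2 in size but with an interval of -1.46 to -0.09 and an adjusted p of 0.343. With the within-group axis as a covariate, FGFR1 (-0.29, adjusted p = 0.0475) and FGFRL1 (-0.77, adjusted p = 0.0497) passed narrowly. That covariate was drawn from the spread of these same libraries, so that these passes are not independent support.

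By edgeR, 4-OHT itself moved no gene past the threshold, either on its own or on top of erdafitinib. Of the 16210 genes, 0 were called for TR 4-OHT against TR vehicle (127 at an unadjusted p under 0.05) and 0 for TR combination against TR erdafitinib (104 unadjusted). DESeq2 called 0 and 18. For FGFR1 the effect of 4-OHT was -0.00 (95% interval -0.56 to 0.55), and for FGFR2 it was 0.14 (-0.17 to 0.45). FGF13 had 1 count in TR 4-OHT and 10 in TR vehicle, with an edgeR adjusted p of 1.

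Levels were set between genes per kb of exon, as counts scaled to depth and divided by length. The mix of receptors differed between the cells. In TR vehicle cells FGFR1 made up 31.2 ± 1.52% of the summed level of FGFR1 to FGFR4, against 8.14 ± 0.93% in PAR vehicle cells (SD, n = 3 each). FGFR2 made up 44.2 ± 8.77% in TR vehicle and 74.4 ± 11.3% in PAR vehicle. The share of FGFR4 was 13.7 ± 7.93% in TR vehicle and 4.48 ± 2.65% in PAR vehicle, and that of FGFR3 was 10.9 ± 1.35% in TR vehicle and 13.0 ± 10.1% in PAR vehicle. The summed level was 11.7 ± 3.73 CPM per kb in TR vehicle and 4.95 ± 0.88 in PAR vehicle. In the other TR groups the share of FGFR1 was 33.5 ± 0.34% in TR combination, 35.3 ± 1.71% in TR erdafitinib and 31.6 ± 1.64% in TR 4-OHT. The share of FGFR2 was 37.9 ± 6.42% in TR combination, 36.2 ± 3.89% in TR erdafitinib and 47.7 ± 5.87% in TR 4-OHT.

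The files' exon lengths add up all annotated exons, 17.201 kb for FGFR1 and 18.813 kb for FGFR2, which is far more than 1 transcript of either. With the length of the principal transcript (5.9 kb and 3.061 kb), FGFR1 made up 23.1 ± 2.57% in TR vehicle and 4.76 ± 0.72% in PAR vehicle, and FGFR2 made up 68.2 ± 6.30% and 90.7 ± 3.90% in the same groups. On both lengths FGFR2 had the highest level of the 4 receptor genes in TR vehicle and in PAR vehicle by group mean. FGFR1 was second in TR vehicle on both. In PAR vehicle its place depended on the length, with 0.403 CPM per kb for FGFR1 and 0.702 for FGFR3 on all exons, but 1.18 for FGFR1 and 0.790 for FGFR3 on the principal transcript. Against FRS2, with 13.5 CPM per kb of all exons in TR vehicle and 16.5 in PAR vehicle, FGFR2 was lower on this length (4.95 and 3.61) and higher on the principal transcript (30.5 for FGFR2 and 14.8 for FRS2 in TR vehicle, and 22.2 and 18.1 in PAR vehicle).

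**Figure D3:**
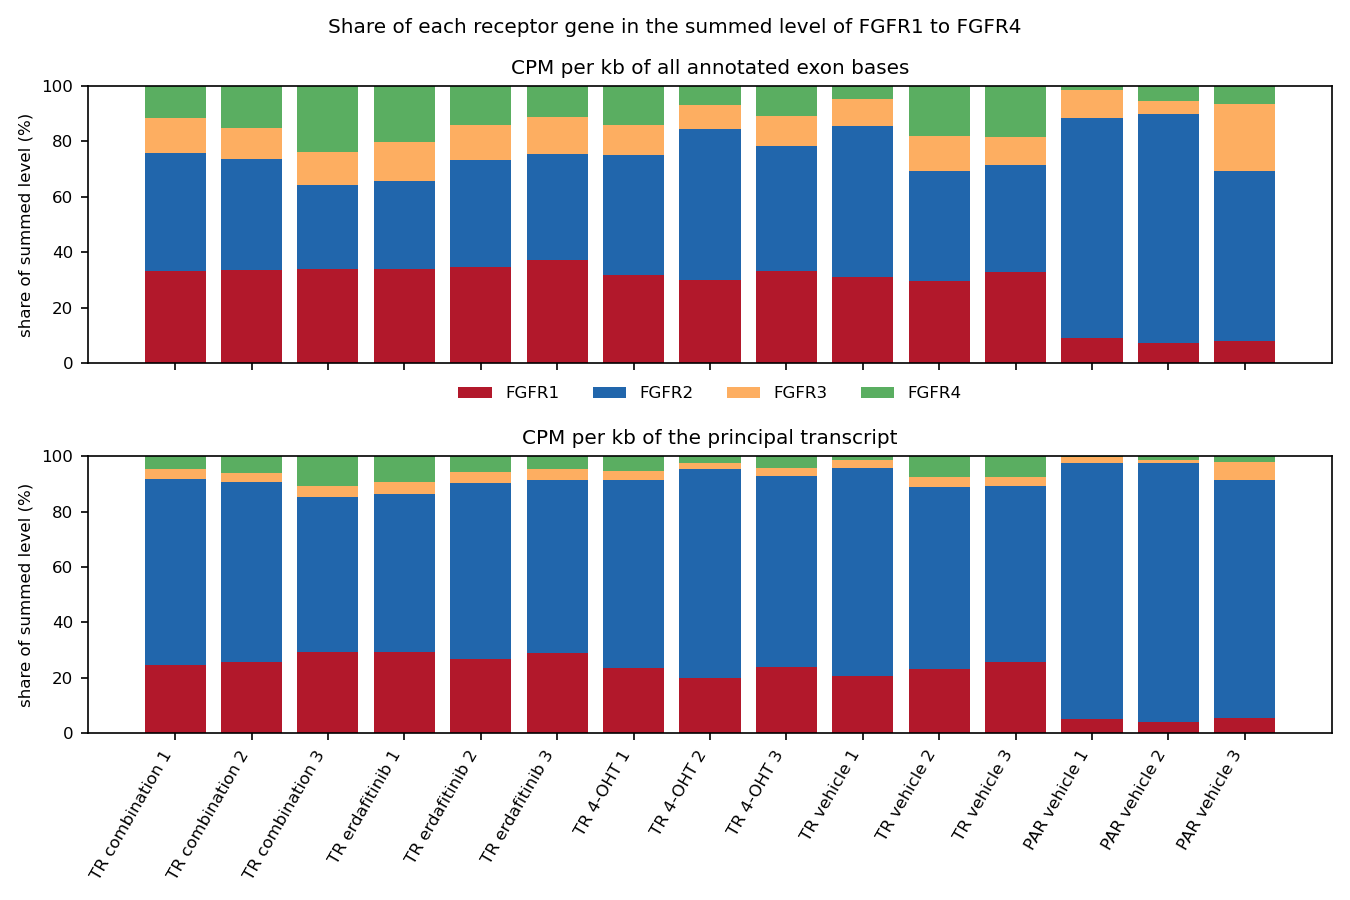
Share of FGFR1 to FGFR4 in their summed level (y axis, percent) in each of the 15 libraries (x axis), per kb of all annotated exon bases (top) and of the principal transcript (bottom). The FGFR1 share is above 29% in all 12 TR libraries and below 10% in the PAR libraries in the top panel, and FGFR2 holds most of the sum in the bottom panel.

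Among libraries of 1 group, the first axis of variation took 49.5% of the variance and followed transcript GC (Spearman 0.722 between axis loading and GC across genes, which are not independent). FGFR1, FGFR3, FGFR4 and FRS2 followed it more than the median gene did, and FGFR2, FGFRL1 and FGF13 followed it less. The share of a gene's own within-group variance on this axis was 85.4% for FGFR3, 81.9% for FGFR1, 74.8% for FRS2 with the opposite sign, and 62.0% for FGFR4, against a median of 44.9% over all tested genes. For FGFR2 it was 41.5%, for FGFRL1 40.2% and for FGF13 12.8%. The transcripts of FGFR3, FGFR4 and FGFRL1 have 62.0 to 63.6% G and C, those of FGFR1 and FGFR2 have 51.3 and 48.8%, and that of FRS2 has 36.9%. The SD of the log2 level within groups was 1.06 for FGFR4, 0.72 for FGFR3, 0.64 for FGFRL1, 0.35 for FGFR1, 0.33 for FRS2 and 0.15 for FGFR2.

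The library that stood lowest on the axis, TR vehicle 1, was the lowest of the TR libraries for FGFR3, FGFR4 and FGFRL1 and the highest of all for FRS2. In it the fifth of genes richest in GC deviated from the group mean by -1.02 on the log2 scale, and in PAR vehicle 3, the highest, by 0.89. When the axis entered the fit as a covariate, the log2 fold change of FGFR3 in TR vehicle over PAR was 0.98 and passed the test (adjusted p = 0.00239), and that of FRS2 was -0.34 (adjusted p = 0.0396). That fit had 8888 genes called, against 5818 genes called without the covariate. The axis was drawn from the within-group spread of these same libraries, so that the fit removes part of that spread by design. Calls made with it are therefore not independent support. The mitochondrial share of counts also differed within groups, at 22.9, 22.3 and 17.9% in TR combination 1 to 3, 22.6, 18.6 and 15.6% in TR vehicle 1 to 3, and 25.7, 24.0 and 14.5% in PAR vehicle 1 to 3. TR erdafitinib libraries had 15.8 to 19.3% and TR 4-OHT libraries 17.8 to 24.2%. In 4 of the 5 groups the library highest on the axis had the lowest share. In TR vehicle, replicates 2 and 3 were nearly level on the axis, and replicate 3 had the lowest share. The part of this share in these results was not tested.

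**Figure D4:**
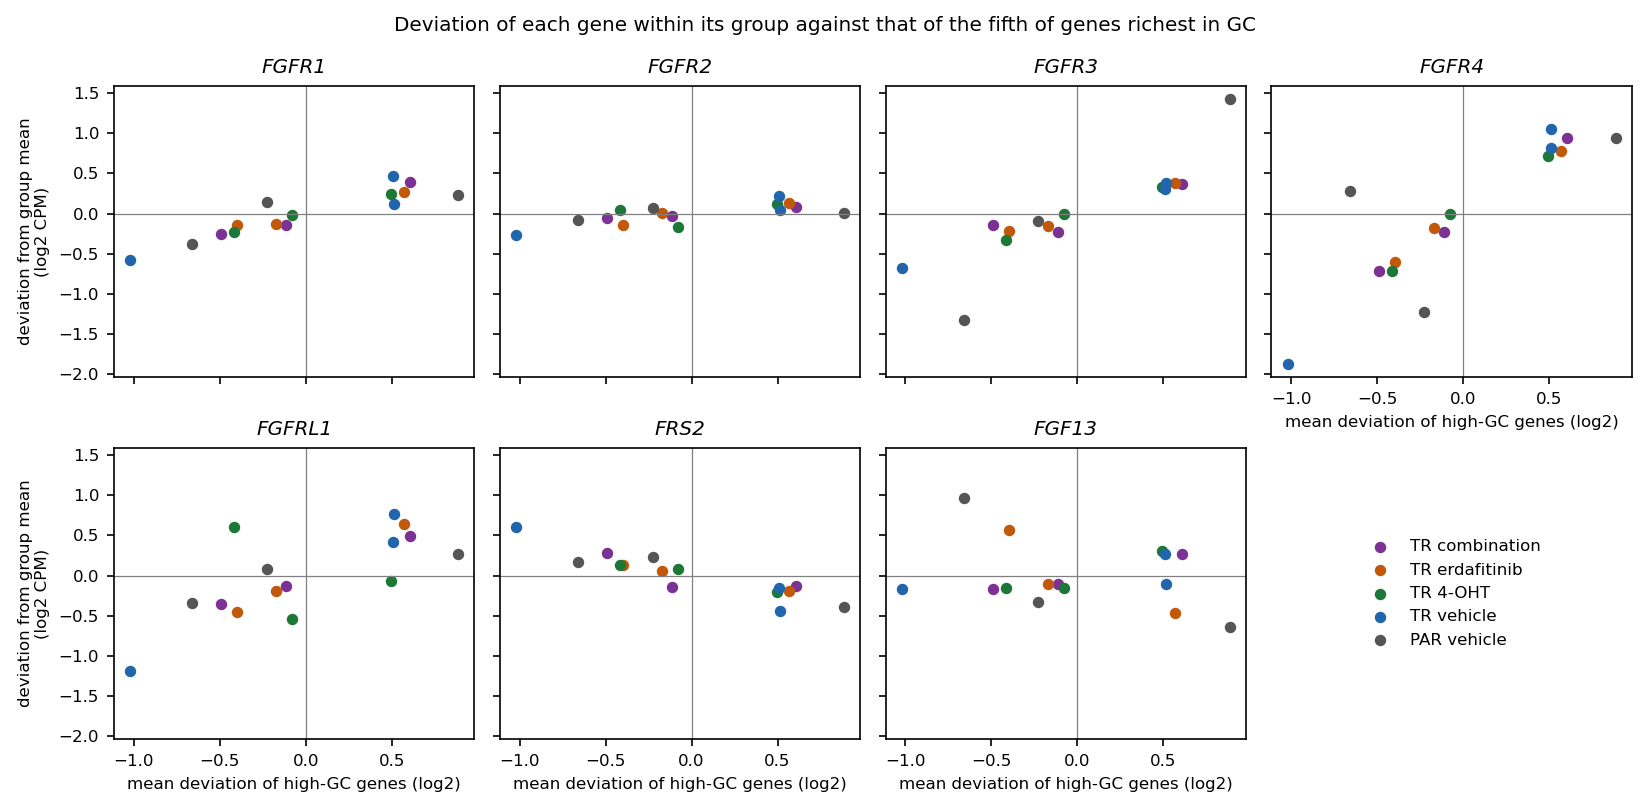
Deviation of each gene from its group mean (y axis, log2 CPM) against the mean deviation of the fifth of genes richest in GC in the same library (x axis, log2). Points are the 15 libraries coloured by group. FGFR3 and FGFR4 run upward from TR vehicle 1 at -1.02 to PAR vehicle 3 at 0.89, FRS2 runs downward, and FGFR2 stays close to 0.

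The other genes of the pathway were read from lists by role. No FGF ligand reached the level of testing. Of 18 ligand genes, 7 had 0 counts in all 15 libraries, the 18 together had 204 counts in all libraries, and none averaged 1 CPM in any group. FGF1, a ligand of all the receptors, had the most counts, 61 in total and 0 in PAR vehicle, with 8 in TR combination, 6 in TR erdafitinib, 25 in TR 4-OHT and 22 in TR vehicle. FGF22 had 8 counts in TR vehicle and 20 in PAR vehicle. Ligand protein in the serum or medium was not measured. Of the FGF homologous factors, FGF12 was higher in TR vehicle, at 26.8 ± 3.33 CPM against 13.9 ± 1.36 CPM in PAR vehicle (log2 fold change 0.94, adjusted p = 0.000241), the opposite direction to FGF13.

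Of the co-receptors and FGF-binding proteins, 5 of the 6 tested genes of 12 listed rose in TR vehicle against PAR vehicle and 0 fell, with a median log2 fold change of 3.53, where 19.9% of all tested genes rose and 16% fell, with a median of 0.07. Of these 5, FGFBP1, FGFBP2 and CDH2 passed the filter only through TR libraries and had to differ. Without them 2 of 3 rose, with a median of 1.06. FGFBP1, a secreted carrier that releases FGFs from the matrix, had 105 counts in TR vehicle and 0 in PAR vehicle, at least 21.2-fold higher in TR vehicle (against 3 counts over the PAR group). FGFBP2 had 26 counts in TR vehicle and 1 in PAR vehicle, a ratio of 15.8 (exact 95% interval 2.59 to 646). CDH2 (N-cadherin, which binds FGFR1) had 53 and 3 in the same groups, a ratio of 10.7 (3.47 to 53.6). FGFBP3 was higher by 1.06 on the log2 scale (adjusted p = 0.0134). L1CAM, a neural adhesion protein that can activate FGFR1, stood at 125 ± 70.5 CPM in TR vehicle and 2.44 ± 2.24 CPM in PAR vehicle (log2 fold change 5.49, SE 0.70, adjusted p = 3.21e-05). FLRT3, the remaining tested gene, had a log2 fold change of 0.47 (adjusted p = 0.216). The Klotho genes KL and KLB were on this list and were not tested.

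Of the 26 receptor-proximal adaptors and effectors, all tested, 6 rose and 3 fell in TR vehicle, with a median log2 fold change of 0.10, and 9 of 26 is close to the 35.9% called among all genes. Those with the smallest p included PIK3R1, the regulatory subunit of PI3 kinase (2.79, adjusted p = 1.69e-06), the ubiquitin ligase CBLB, which takes part in turning receptors over (-1.75, adjusted p = 8.39e-06), STAT3 (0.96) and PLCG1, the phospholipase that docks on the receptor tail (1.45). PIK3R1 stood at 543 ± 170 CPM in TR vehicle and 78.7 ± 18.9 CPM in PAR vehicle. CBLB stood at 8.55 ± 0.97 CPM in TR vehicle and 28.8 ± 5.00 CPM in PAR vehicle. The genes of proteins that FRS2 recruits did not move together. PTPN11 was called higher (0.84, adjusted p = 0.00797), and SOS2 was called lower (-0.72, adjusted p = 0.0381) with overlapping libraries. GRB2 (0.28) and SOS1 (-0.23) were not called, and neither was the adaptor gene GAB1 (0.03).

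Among the ERK feedback genes, 10 of 17 tested rose and 2 fell in TR vehicle, with a median of 1.16, against 19.9% higher, 16% lower and a median of 0.07 over all tested genes. Of the 10, SPRY4, ETV5, IL17RD and EGR1 passed the filter only through TR libraries and had to differ. Of the 11 tested genes that did not pass that way, 6 rose and 2 fell, with a median of 0.54. PHLDA1 was higher by 2.38 (adjusted p = 7.73e-08), with 190 ± 31.7 CPM in TR vehicle and 36.6 ± 2.21 CPM in PAR vehicle. ETV5, a transcription factor induced by FGF signalling, had 302 counts in TR vehicle and 1 in PAR vehicle, a ratio of 183 (32.6 to 7258). SPRY4 had 272 counts in TR vehicle and 0 in PAR vehicle, at least 55.0-fold higher in TR vehicle. SPRY2 (1.16) and the cyclin gene CCND1 (1.06) rose as well. DUSP6, the ERK phosphatase, and DUSP5 fell by 1.59 and 0.73 on the log2 scale, so that the feedback genes did not move one way. DUSP6 stood at 3.40 ± 0.33 CPM in TR vehicle and 10.3 ± 2.45 CPM in PAR vehicle.

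Of 7 other kinases that erdafitinib binds, 2 were tested. RET, the receptor kinase of the GDNF ligands, stood at 7.75 ± 1.36 CPM in TR vehicle and 0.347 ± 0.463 CPM in PAR vehicle (log2 fold change 4.05, adjusted p = 4.76e-05), and passed the filter only through TR libraries. FLT4 had a log2 fold change of -1.37 (adjusted p = 0.119).

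In the pooled erdafitinib comparison edgeR called no gene of these lists. At an unadjusted p under 0.05 there were 3 of 6 co-receptors and binding proteins, 4 of 26 adaptors and effectors, 4 of 17 ERK feedback genes and 0 in the other lists, against 1897 of all 16210 genes. DESeq2 called L1CAM and SPRED3. L1CAM stood at 41.7 ± 18.4 CPM in TR combination, 46.1 ± 22.9 in TR erdafitinib, 115 ± 49.0 in TR 4-OHT and 125 ± 70.5 in TR vehicle, a pooled log2 fold change of -1.45 (SE 0.40, edgeR adjusted p = 0.101). SPRED3, an ERK pathway inhibitor, had a pooled value of -0.73 (SE 0.19, adjusted p = 0.0844). The feedback genes SPRY4 (-0.24, adjusted p = 0.803), SPRY2 (0.08), DUSP6 (0.04) and ETV5 (0.35) did not pass the test, after 120 h on the inhibitor. The median pooled change was -0.24 for co-receptors and binding proteins, -0.03 for adaptors and effectors and -0.03 for ERK feedback genes, against -0.01 over all tested genes. COL3A1, of the marker list of other cells, fell by 1.89 on the log2 scale with erdafitinib (adjusted p = 0.00502), in the same libraries in which FGFR2 was lower, and its part in that result was not tested. The summed level of the 13 markers was 15.0 to 31.7 CPM in TR combination, 16.5 to 31.4 in TR erdafitinib, 19.9 to 35.2 in TR 4-OHT and 13.6 to 39.1 in TR vehicle libraries.

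**Figure D5:**
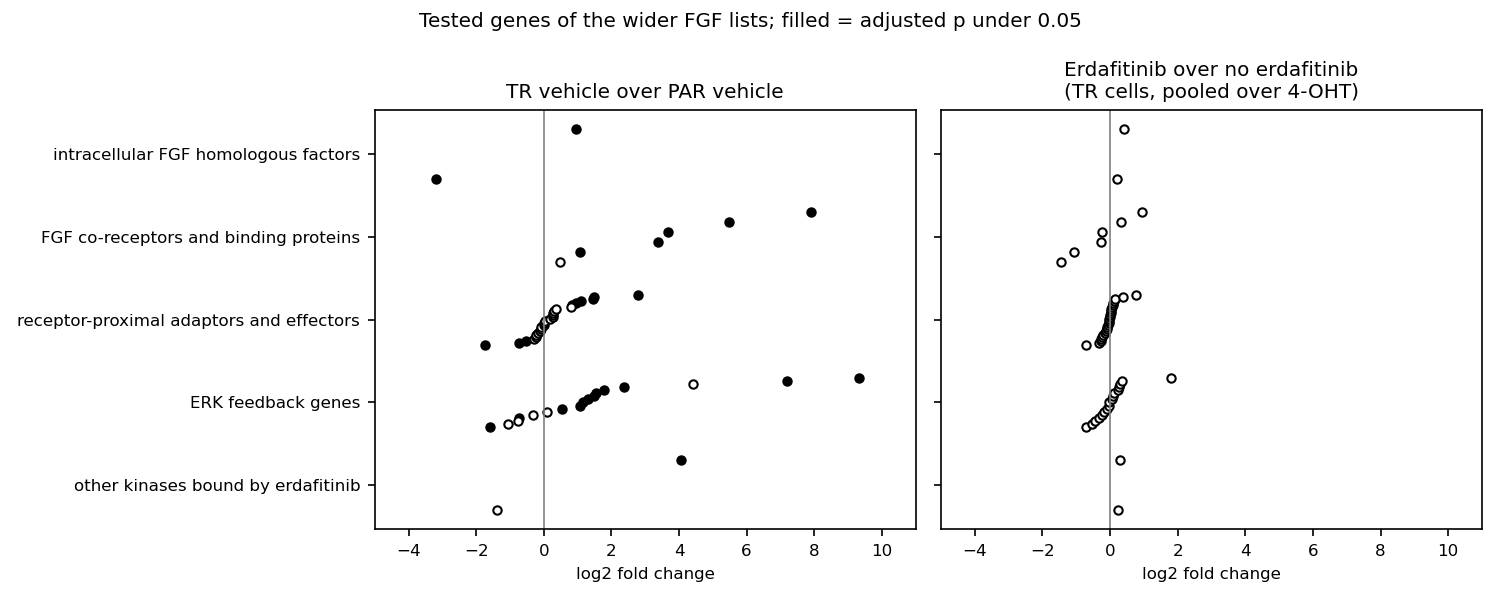
Fitted log2 fold change (x axis) of each tested gene of the wider FGF lists (y axis, spread within a list for display) for TR vehicle over PAR vehicle (left) and for erdafitinib over no erdafitinib in TR cells (right). Filled points had an adjusted p under 0.05: 5 of 6 co-receptors and binding proteins, 9 of 26 adaptors and 12 of 17 ERK feedback genes on the left, and 0 on the right. Fitted values of genes with almost no counts in PAR, such as SPRY4, are not bounds.

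The genes whose group pattern came closest were named for the 3 genes called with a log2 fold change of at least 1. Likeness was the root mean square difference of the 5 group means after centring, on the log2 scale. FGFR1 was closest to ACER3 (0.05), MLLT11 (0.09) and FASN (0.10), out of 345 genes within 0.5. FGFR4 was closest to PLEKHH2 (0.03), SLC39A8 (0.05) and BIRC3 (0.06), out of 569 within 0.5. FGF13 was closest to SNX10 (0.24), ZNF667 (0.31) and HSPA5 (0.34), out of 50. ACER3, like FGFR1, centred at 0.66 in TR vehicle and -2.33 in PAR vehicle, where FGFR1 centred at 0.72 and -2.40. With 5 group means and 1 large step between TR and PAR, such closeness is shared by many genes.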

How the data were processed

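Values were raw counts per Ensembl gene, deposited by the authors in 1 file per library. They were made with featureCounts 2.0.1 (paired-end, reverse-stranded, Ensembl 104), per the file headers. Per the submitters' processing notes the tools were featureCounts 1.4.6-p1, HISAT2 2.1.0 and GRCh38. The header commands set no option for multi-mapping or multi-overlapping reads, which the counter then drops. The exon length per gene deposited by the authors beside the counts (unit bases) set levels per kb, and read trimming is not given in the sources used here.

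All 15 libraries entered 1 edgeR 4.0.16 quasi-likelihood fit (R 4.3.3) with a mean per group, no block, TMM factors of 0.907 to 1.102 and the filterByExpr filter (16210 genes kept, 44454 left out; 10 residual degrees of freedom). For each of 10 contrasts, calls were made at 0.05 after Benjamini-Hochberg adjustment. Standard errors came from F, and 95% intervals used a t quantile of 2.14. Means are given with SD. Ratios for low counts have exact conditional intervals, which cover counting error only.

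The 7 genes, the wider lists and the tests were chosen with earlier results of these data known. Named genes were the 7, all called genes of a list where 5 or fewer were called and otherwise the 5 with the smallest p, and the 3 nearest patterns, except that 1 gene named by this rule is not reported here. Genes added after their values were seen were FGF22, COL3A1, FLRT3, FLT4, GRB2, SOS1, SOS2, PTPN11, GAB1, SPRED3, DUSP5 and DUSP6. Those listed as having passed the filter through TR libraries only, and the erdafitinib values of luminal markers, were also added then. Same-group libraries differed by more than counting error (chi-square per gene 8.05 to 164). GC content and principal transcripts came from GENCODE 29. Same-numbered libraries deviated together in some pairs and oppositely in others, so that the numbers were not used to pair them. The alternatives tried were DESeq2-style size factors, DESeq2 1.42.0, other filters, only the groups compared, the replicate block, thinning to the lowest total, the within-group axis as a covariate, GC offsets, leaving out the 2 shallowest libraries and each library in turn, and, added after the data were seen, the principal transcript length. The code was tested on simulated counts.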

Additional observations from a re-analysis of the deposited data

How the results depend on the processing

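Across the 25 alternatives for each of the 10 comparisons no called value changed sign. The calls of FGFR1 and FGFR4 in TR vehicle against PAR vehicle held in all 25. So did the FGFR2 call in the pooled erdafitinib effect. The FGF13 call in TR vehicle against PAR vehicle held in the 23 that kept the gene. FGFR4 passed the filter only through TR libraries and FGF13 only through PAR libraries. How often their calls held is therefore not support for a difference. For the 7 genes in TR vehicle against PAR vehicle, 91 called values kept their call, 7 lost it (all FGFR2) and 5 uncalled values gained one. Uncalled values changed sign 6 times there and 16 times in the pooled effect. The cause of each loss was not tested, beyond fewer libraries or reads where the setting removes them.

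FGFR2 in TR vehicle against PAR vehicle lost its call with no filter (0.52), with only the groups compared (0.43), with counts thinned to the lowest total (0.39) and without the 2 shallowest libraries (0.42), and ranged from 0.36 to 0.58 when 1 library was left out. Thinning left 2 of the 7 genes called (FGFR1 and FGFR4) and dropped FGF13. Without the 2 shallowest libraries, FGFR4 lost its call in TR 4-OHT (2.67) and TR combination (2.57) against PAR, and FGFR2 lost it in TR combination against TR 4-OHT (-0.85), leaving 0 members called. Leaving out 1 library gave FGFR4 values of 1.98 to 3.26 in TR 4-OHT, 2.12 to 3.45 in TR erdafitinib and 1.94 to 3.42 in TR combination against PAR. For FGFR2 in TR combination against TR 4-OHT it gave -0.94 to -0.81, with 0 to 1 members called.

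With the within-group axis as a covariate there were 8888, 8755, 8737 and 8544 genes called for TR vehicle, TR 4-OHT, TR erdafitinib and TR combination against PAR, with 5 members called in the last. The axis was drawn from the spread of these same libraries, so that this setting removes part of that spread by design. GC offsets gave 5 members called in TR erdafitinib and 5 in TR combination against PAR. Only the groups compared gave 3408 genes called for TR vehicle against PAR.

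For TR erdafitinib against TR vehicle (15 genes called), DESeq2 gave 87, no filter 26, only the groups compared 0, the replicate block 9, thinning 9, the axis 277 and GC offsets 105 genes called. The members called there were 1 with DESeq2, 1 with the axis and 1 with GC offsets, FGFR2 each time. Leaving out 1 library gave 2 to 19 genes. For TR combination against TR 4-OHT (104 genes called), DESeq2 gave 288, only the groups compared 65, the axis 746, GC offsets 380, and leaving out 1 library 45 to 137 genes called. For TR combination against TR erdafitinib (0 genes called), DESeq2 gave 18, no filter 9, thinning 1, the axis 17 and GC offsets 10 genes called. For the pooled effect (278 genes called), DESeq2 gave 580, the axis 1715 with 3 members called, GC offsets 928, and leaving out 1 library 140 to 445 genes called. For the interaction (0 genes called, 134 at an unadjusted p under 0.05), DESeq2 gave 1.

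Replicate numbers do not pair the libraries: 13 of 30 same-numbered pairs correlated over 0.1 (range -0.83 to 0.77), and 7 of 15 libraries correlated best with their own number. The replicate block changed no call of the 7 genes. PAR vehicle 2 and TR 4-OHT 2 limit the depth, and FGF13 and the PAR level of FGFR4 rest on few counts.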
